A study of Mus musculus with 14 samples.

Results

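The genes described here are 10 that set how calcium is buffered, sensed and cleared in a neuron, read in mouse cerebellum: the buffers Calb1 and Pvalb, the sensor Hpcal1, the plasma membrane pumps Atp2b1, Atp2b2, Atp2b3 and Atp2b4, the endoplasmic reticulum pumps Atp2a2 and Atp2a3, and the exchanger Slc8a2. They were chosen by name, and all 10 are among the 24100 genes of the count table. Mice wild type (WT) or knockout (KO) for Astn2, a gene for a neuronal membrane protein, were littermates, and all carried a Pcp2-L10a-EGFP transgene. In it the Pcp2 promoter, which is active in Purkinje cells, drives a ribosomal protein fused to green fluorescent protein. Cerebella were taken at postnatal day 21. Tagged ribosomes were captured from the homogenate with antibodies to the fluorescent protein (translating ribosome affinity purification, TRAP), and a portion of the same homogenate, taken before capture, served as input. There were 4 input WT libraries (1 female, 3 male), 3 input KO (2 female, 1 male), 3 TRAP WT (1 female, 2 male) and 4 TRAP KO (2 female, 2 male). Nothing in the labels says that each library came from a separate animal, so the p-values measure the spread between these libraries.

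Calcium enters Purkinje cells with every climbing fibre spike and is released from stores after parallel fibre input, and these cells hold unusually high amounts of calcium-binding protein. Calbindin (Calb1) and parvalbumin (Pvalb) bind calcium in the cytosol and shape the size and decay of a transient. Plasma membrane calcium ATPases (PMCA, the Atp2b genes) and sodium/calcium exchangers (Slc8 genes) move calcium out of the cell, and sarco/endoplasmic reticulum calcium ATPases (SERCA, the Atp2a genes) return it to the store. Parvalbumin is also made by the inhibitory interneurons of the molecular layer.

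Library totals ran from 18.8 to 54.2 M counts (M, 1000000), and the counts of the 10 genes ran from 87 (Atp2b4, in a TRAP library) to 439765 (Pvalb, in a TRAP library). Levels are counts per 1000000 (CPM), scaled with TMM factors over the 14 libraries. Levels of different genes are compared as CPM per kb of transcript, except where the effect of that length correction is shown. Astn2, the targeted gene, fell from a mean of 94.5 CPM in input WT to 0.877 in input KO, and from 130.3 CPM in TRAP WT to 1.52 in TRAP KO. The labelled cell type was checked with marker genes. The score of a panel is the mean of log2(CPM + 1) over its genes. The Purkinje panel (10 genes) scored between 7.55 and 7.78 in the input libraries and between 10.3 and 10.8 in the TRAP libraries, and none of its genes was at 0 in any group. In TRAP against input in WT, 10 of 10 Purkinje markers were higher and 10 of 10 granule cell markers and 8 of 8 interneuron markers were lower. In these bulk libraries, fewer cells of a type and less RNA per cell cannot be told apart.

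One TRAP library stood apart before any gene was considered. TRAP WT replicate 3 had Pearson correlations of 0.968 to 0.981 with the other TRAP libraries over 16042 genes, against 0.984 to 0.997 among those others. Values without it are given beside several of the results it moves.

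The stretches upstream of 4 of the genes are shown here because Pvalb, Hpcal1 and Atp2a3 had the 3 largest log2 fold changes of TRAP over input among the 10 genes, in both genotypes, and Slc8a2 moved the other way. Each is the 250 bases before a RefSeq start site (assembly GRCm38.p6), printed 5′ to 3′ on the gene's strand, and none overlaps an exon of the GENCODE M21 annotation. The last 59 bases of the Hpcal1 window, which lie past the start of the gene's RefSeq span, are left out, and the Slc8a2 window lies inside its gene's span, before an internal start. The windows were chosen after the values were seen. Without TRAP WT replicate 3, the log2 fold change of Calb1 (2.86) was above that of Atp2a3 (2.75) in WT. Capitals mark GGGCGG or its reverse complement CCGCCC, the core of the GC box.
Pvalb, chr15:78206401-78206650, minus strand: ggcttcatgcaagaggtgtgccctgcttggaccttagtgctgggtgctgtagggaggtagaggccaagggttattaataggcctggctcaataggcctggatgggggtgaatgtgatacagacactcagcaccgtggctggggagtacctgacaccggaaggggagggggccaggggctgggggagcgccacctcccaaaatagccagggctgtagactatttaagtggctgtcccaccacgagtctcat
Hpcal1, chr12:17690559-17690749, plus strand: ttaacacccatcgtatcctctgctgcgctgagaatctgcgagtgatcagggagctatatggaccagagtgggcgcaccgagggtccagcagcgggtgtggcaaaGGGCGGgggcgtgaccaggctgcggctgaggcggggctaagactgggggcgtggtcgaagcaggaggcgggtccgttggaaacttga
Atp2a3, chr11:72960919-72961168, plus strand: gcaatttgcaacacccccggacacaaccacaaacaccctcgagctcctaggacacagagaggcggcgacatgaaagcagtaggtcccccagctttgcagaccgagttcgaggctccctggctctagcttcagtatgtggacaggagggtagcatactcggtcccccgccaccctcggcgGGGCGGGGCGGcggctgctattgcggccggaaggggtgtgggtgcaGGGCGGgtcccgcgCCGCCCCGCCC
Slc8a2, chr7:16129576-16129825, plus strand: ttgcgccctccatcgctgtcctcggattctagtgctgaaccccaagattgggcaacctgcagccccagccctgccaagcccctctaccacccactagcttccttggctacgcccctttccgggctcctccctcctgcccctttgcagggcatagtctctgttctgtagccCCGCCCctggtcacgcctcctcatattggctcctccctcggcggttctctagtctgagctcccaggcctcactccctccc
The Pvalb window held 0 matches, the Hpcal1 window 3 (1 of them in the stretch shown), the Atp2a3 window 5 (overlapping matches counted) and the Slc8a2 window 1. Of 32536 windows of the same length in the table, 33.0% held at least 1 match. RefSeq windows were matched for 7 of the 10 genes, 11 windows in all, and 7 of the 11 held GGGCGG on either strand. TATAAA, the core of the TATA box, was in none of the 11 and in 12.3% of all windows. AGGTCA, a nuclear receptor core site bound by ROR-alpha, was in none of the 11 and in 14.04% of all windows. The G and C share was 58.4% in the Pvalb window shown, 66.8% in the Hpcal1 and Atp2a3 windows and 63.2% in the Slc8a2 window, against a median of 52.4% over all windows. Another Pvalb window, not shown, held 0 matches, with a share of 71.6%. Of the other genes lower in TRAP, Atp2b1 had windows with 4 and 3 matches (78.4% and 80.8%). Atp2b4 had a window with 0 (45.6%).

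TRAP against input asked which of these genes were carried on ribosomes of Pcp2-expressing cells at more than the cerebellar average. In both genotypes 6 of the 10 were higher in TRAP (Calb1, Pvalb, Hpcal1, Atp2b2, Atp2a2, Atp2a3) and 4 were lower (Atp2b1, Atp2b3, Atp2b4, Slc8a2). All 10 passed the threshold of 0.05 on the adjusted p of edgeR's quasi-likelihood fit, and for each gene no TRAP library of a genotype overlapped an input library of that genotype. Most genes of the table also differed between the fractions. Of 16042 genes tested, 75.5% were called in WT (37% higher and 38.5% lower) and 75.9% in KO (36.3% higher and 39.6% lower). The median absolute log2 fold change was 2.40 for the 10 genes in WT, beside 1.10 for all genes tested, and 2.14 in KO, beside 1.05.

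**Figure D1:**
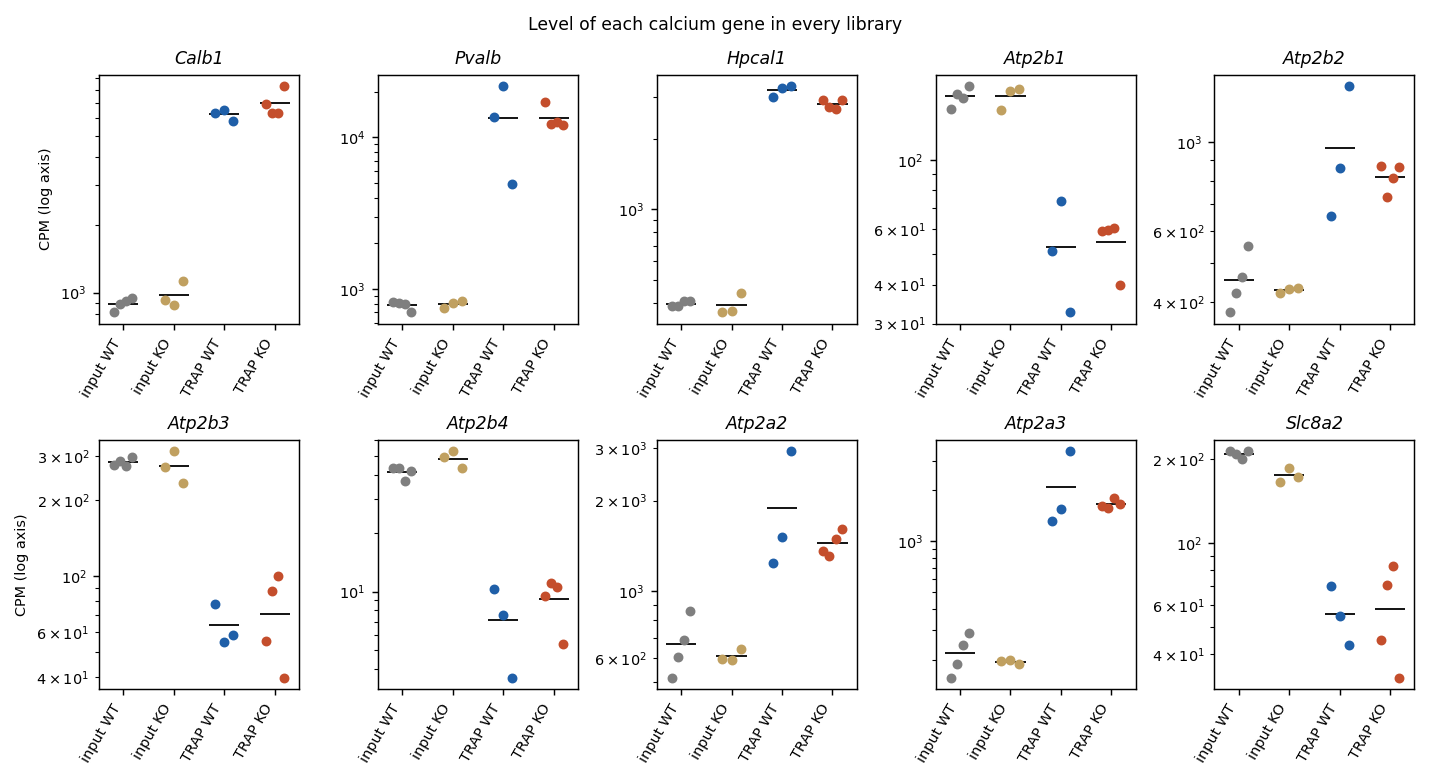
Level of each gene (CPM, log axis with its own range for each gene) in every library of the 4 groups; points are libraries and bars are group means. Calb1, Pvalb, Hpcal1, Atp2b2, Atp2a2 and Atp2a3 are higher in TRAP, and the other 4 genes are lower, with no overlap between TRAP and input.

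Pvalb (Entrez 19293, chr15:78191112-78206400 in GRCm38.p6), the slow buffer parvalbumin, had the highest level per kb in every group. In input its levels were 826, 806, 797 and 701 CPM in WT and 752, 803 and 831 in KO. In TRAP they were 13626, 21878 and 4954 CPM in WT and 17150.3, 12217, 12609 and 12087 in KO. Every TRAP library was therefore several-fold above every input library, while the 3 TRAP WT libraries differed among themselves by more than any other group, with replicate 3 the lowest of all 7 TRAP libraries. The log2 fold change was 4.10 ± 0.35 (SE) in WT (17.2-fold, adjusted p = 1.46e-07, edgeR), and it was 4.48 without TRAP WT replicate 3 and 3.37 (10.3-fold) without TRAP WT replicate 2, the highest library. In KO it was 4.10 ± 0.39 (17.1-fold, adjusted p = 4.33e-07, edgeR). Only 50 of 16042 genes had a higher log2 fold change in WT and 42 in KO. The interneuron panel moved the other way, though its genes were not limited to the molecular layer interneurons, which also make parvalbumin. Its summed level was 407 to 434 CPM in input WT and 77.4 to 127 in TRAP WT. In KO it was 404 to 439 CPM in input and 77.1 to 132 in TRAP, and no gene of it was at 0.

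Calb1 (Entrez 12307, chr4:15881264-15906709), the fast buffer calbindin, was steadier. Its levels were 816, 889, 921 and 947 CPM in input WT and 923, 878 and 1126 in input KO. They were 6279.8, 6522 and 5810.2 CPM in TRAP WT and 6903, 6273, 6289 and 8320.3 in TRAP KO. TRAP libraries stood close together around a 7-fold difference from input, and TRAP KO replicate 4 was the highest. The log2 fold change was 2.81 ± 0.12 (SE) in WT (7.03-fold, adjusted p = 2.05e-10, edgeR) and 2.81 ± 0.13 in KO (7.01-fold, adjusted p = 6.67e-10, edgeR).

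Hpcal1 (Entrez 53602, chr12:17690750-17791944) encodes a visinin-like neuronal calcium sensor, a protein that binds calcium through EF hands and then associates with membranes. It was at 386, 387, 406 and 405 CPM in input WT and 364, 368 and 439 in input KO. In TRAP it was at 3011, 3279 and 3361 CPM in WT and 2918, 2729, 2687 and 2936 in KO. Its log2 fold change was 3.03 ± 0.09 (SE) in WT (8.16-fold, adjusted p = 3.93e-11, edgeR) and 2.84 ± 0.10 in KO (7.16-fold, adjusted p = 1.59e-10, edgeR). These were the smallest standard errors of the 10 genes, and the coefficient of variation within the TRAP groups was 5.69% in WT and 4.54% in KO.

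The SERCA genes both rose in TRAP, by different amounts. Atp2a3 (Entrez 53313, chr11:72961169-72993043), which encodes SERCA3, was at 156, 189, 244 and 288 CPM in input WT and 196, 199 and 189 in input KO. In TRAP it was at 1321, 1558 and 3417 CPM in WT and 1628, 1584, 1817 and 1667 in KO. TRAP WT replicate 3 was the highest TRAP library for Atp2a3, where it had been the lowest for Pvalb. The log2 fold change was 3.27 ± 0.25 (SE) in WT (9.65-fold, adjusted p = 5.79e-08, edgeR), 2.75 without that replicate, and 3.04 ± 0.28 in KO (8.20-fold, adjusted p = 2.93e-07, edgeR). Only Pvalb had a larger fold change among the 10 genes, in both genotypes. In WT this rank rested on TRAP WT replicate 3: without it Hpcal1 (2.98) and Calb1 (2.86) were also above Atp2a3.

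Atp2a2 (Entrez 11938, chr5:122453513-122502225) encodes SERCA2, the isoform present in most cell types. Its levels were 516, 605, 686 and 860.4 CPM in input WT and 597, 589 and 643 in input KO. They were 1242, 1519 and 2922 CPM in TRAP WT and 1358, 1312, 1496 and 1611 in TRAP KO. TRAP WT replicate 3 was again the highest library. The log2 fold change was 1.52 ± 0.20 (SE) in WT (2.86-fold, adjusted p = 1.07e-05, edgeR), 1.09 without that replicate, and 1.17 ± 0.21 in KO (2.26-fold, adjusted p = 1.71e-04, edgeR).

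Within the SERCA pair the balance turned over between the fractions. Atp2a3 made up 27.2%, 27.8%, 30.5% and 29.2% of the summed CPM per kb of Atp2a2 and Atp2a3 in the input WT libraries and 28.8%, 29.4% and 26.5% in input KO. In TRAP its share was 56.7%, 55.8% and 59.0% in WT and 59.6%, 59.8%, 59.9% and 56.0% in KO. The ranges of input and TRAP were far apart, and the share in TRAP WT replicate 3 lay inside the range of the TRAP KO libraries, although its CPM levels of both genes were well above theirs. The summed level was 165 ± 38.3 CPM per kb (SD, n = 4) in input WT and 149.6 ± 4.05 (SD, n = 3) in input KO. In TRAP it was 789.5 ± 408 (SD, n = 3) for WT, 556 ± 71.0 (SD, n = 2) without replicate 3, and 618 ± 40.2 (SD, n = 4) for KO.

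The PMCA genes split, with Atp2b2 higher in TRAP and the other 3 lower. Atp2b2 (Entrez 11941, chr6:113743831-114042613) encodes PMCA2, whose loss causes ataxia and deafness in mice. It was at 377, 422, 462 and 551 CPM in input WT and 421, 430.0 and 434 in input KO. In TRAP it was at 655, 863 and 1378 CPM in WT and 873, 729, 811 and 865 in KO. The lowest TRAP library exceeded the highest input library, but the difference was the smallest of the 10 genes. The log2 fold change was 1.10 ± 0.18 (SE) in WT (2.14-fold, adjusted p = 6.80e-05, edgeR), 0.76 without TRAP WT replicate 3, and 0.89 ± 0.18 in KO (1.85-fold, adjusted p = 5.69e-04, edgeR). In WT, 3506 of the 16042 genes had a higher log2 fold change.

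Atp2b1 (Entrez 67972, chr10:98914630-99026143), which encodes the widely expressed PMCA1, was at 146, 162, 158 and 173 CPM in input WT and 145, 166 and 169 in input KO. In TRAP it was at 51.1, 73.9 and 32.6 CPM in WT and 59.1, 59.7, 60.5 and 39.8 in KO. The lowest of these 7 values belonged to TRAP WT replicate 3 and the next to TRAP KO replicate 4. Atp2b1 was 3.04-fold lower in TRAP in WT (log2 fold change -1.61 ± 0.23, SE, adjusted p = 2.29e-05, edgeR; -1.36 without TRAP WT replicate 3) and 2.92-fold lower in KO (-1.55 ± 0.22, adjusted p = 2.11e-05, edgeR).

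Atp2b3 (Entrez 320707, chrX:73502749-73573275), which encodes PMCA3, was at 277, 286, 274 and 298 CPM in input WT and 272, 313 and 233 in input KO. It was at 77.9, 55.0 and 58.8 CPM in TRAP WT and 55.2, 87.7, 100.5 and 39.7 in TRAP KO. The TRAP KO libraries spread over more than a 2-fold range. The fold difference was 4.53 lower in WT (log2 -2.18 ± 0.26, SE, adjusted p = 4.51e-06, edgeR) and 3.77 lower in KO (-1.91 ± 0.25, adjusted p = 9.10e-06, edgeR).

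Atp2b4 (Entrez 381290, chr1:133702674-133801059), which encodes PMCA4, had the lowest level per kb of the 10 genes in every group. It was at 43.0, 43.3, 37.2 and 41.8 CPM in input WT and 49.0, 52.8 and 43.1 in input KO. It was at 10.3, 7.54 and 3.61 CPM in TRAP WT and 9.48, 11.1, 10.6 and 5.40 in TRAP KO. The reduction was 6.17-fold in WT (log2 -2.62 ± 0.26, SE, adjusted p = 7.46e-07, edgeR; -2.33 without TRAP WT replicate 3) and 5.12-fold in KO (-2.36 ± 0.24, adjusted p = 8.73e-07, edgeR), the largest of the 4 lower genes in both genotypes.

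Slc8a2 (Entrez 110891, chr7:16127592-16161063) encodes the neuronal sodium/calcium exchanger NCX2. Its levels were 214, 210.0, 201 and 214 CPM in input WT and 167, 186 and 173 in input KO. They were 70.1, 54.7 and 43.1 CPM in TRAP WT and 44.8, 71.1, 83.2 and 33.0 in TRAP KO. It was 3.81-fold lower in TRAP in WT (log2 -1.93 ± 0.26, SE, adjusted p = 1.50e-05, edgeR) and 2.98-fold lower in KO (-1.57 ± 0.25, adjusted p = 5.82e-05, edgeR).

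The 4 lower genes fell in WT by amounts within the spans of several marker panels. The log2 fold changes ran from -3.03 to -1.28 for granule cell markers and -3.19 to -1.51 for interneuron markers. They ran from -2.92 to -0.80 for endothelial markers and -2.71 to -0.32 for microglial markers, and each of these spans held all 4 genes. The astroglial span, -2.66 to 2.77, held them too, but 1 of its 10 markers was higher in TRAP and made it wide. The granule cell panel summed to 5392 to 5611 CPM in input WT and 1074 to 1436 in TRAP WT, and to 5213 to 5518 in input KO and 829.0 to 1531 in TRAP KO, with no gene at 0. Within TRAP KO all 4 lower genes were lowest in replicate 4 and next lowest in replicate 1. The granule cell (6.61, 7.08, 7.03 and 6.17 in replicates 1 to 4), interneuron (3.22, 3.47, 3.51 and 2.91), astroglial (6.09, 6.27, 6.35 and 5.58), oligodendrocyte (6.24, 6.34, 6.74 and 5.85) and microglial (1.06 in replicate 4 and 1.27 in replicate 1) panel scores were too. The endothelial score did not share this order: it was lowest in replicate 4 (0.750) and next lowest in replicate 3 (0.934). Nor did the choroid plexus score, which was lowest in replicate 1 (0.721) and next lowest in replicate 4 (0.731). In TRAP WT the 4 genes did not share 1 order. Atp2b4 and Slc8a2 were lowest in replicate 3 and next lowest in replicate 2, as were the granule cell, interneuron and astroglial scores. Atp2b1 was lowest in replicate 3 and next lowest in replicate 1, as were the oligodendrocyte and microglial scores. Atp2b3 was lowest in replicate 2 and next lowest in replicate 3, as was the endothelial score. The part of RNA from any of these cell types in the levels of the 4 genes was not tested. The 6 higher genes lay within or near the span of the Purkinje panel, 1.57 to 4.99 in WT with a median of 2.69; Atp2b2 and Atp2a2 were below its lower end.

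**Figure D2:**
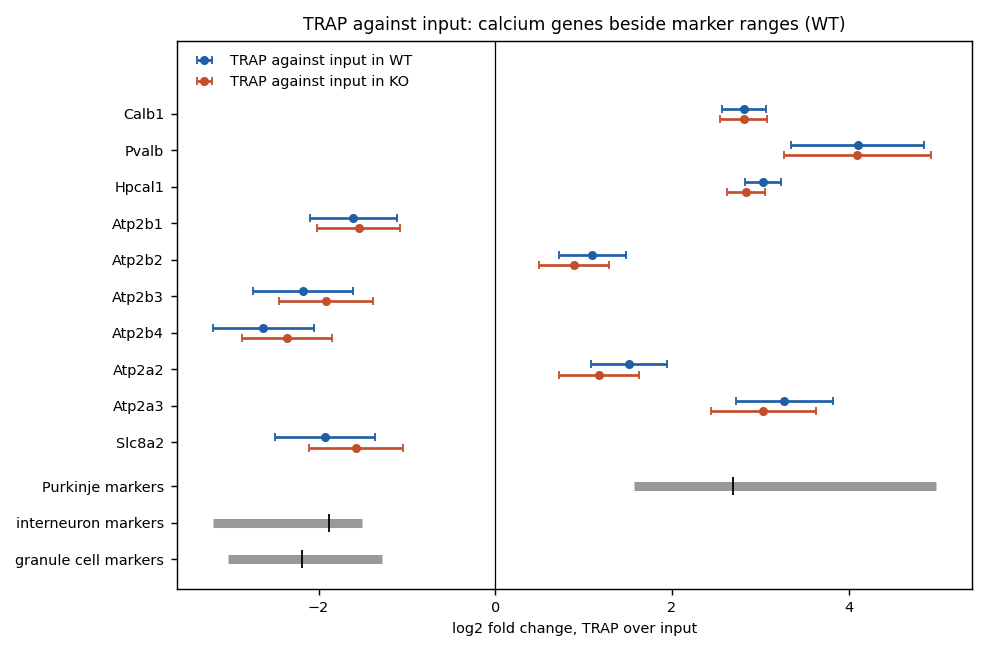
Log2 fold change of TRAP over input for each gene in WT and KO, with 95% confidence intervals, above the range (grey bar) and median (tick) of 3 marker panels in WT. Pvalb lies at 4.10 in both genotypes, Atp2b2 and Atp2a2 lie below the Purkinje markers, and the 4 lower genes fall within the spans of both the granule cell and the interneuron markers.

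With TMM factors, the composition of the PMCA family differed between the fractions far more than its sum. The share of Atp2b2 in the summed CPM per kb of the 4 genes was 33.6%, 35.0%, 38.2% and 40.3% in input WT and 36.3%, 33.7% and 38.7% in input KO. In TRAP it was 74.8%, 81.0% and 89.8% in WT and 82.4%, 74.4%, 74.6% and 87.0% in KO. Atp2b3, the leading isoform per kb in input, had 44.4% ± 2.43 (SD, n = 4) in WT and 43.9% ± 3.73 (SD, n = 3) in KO there. Its share was 11.4% ± 5.02 (SD, n = 3) in TRAP WT and 13.1% ± 5.07 (SD, n = 4) in TRAP KO. Atp2b1 made up 16.2% ± 0.423 (SD, n = 4) of the input WT sum and 6.18% ± 3.14 (SD, n = 3) of the TRAP WT sum. Atp2b4 was at most 3.20% in any library. The summed PMCA level was 138 ± 11.6 CPM per kb (SD, n = 4) in input WT and 130.5 ± 38.1 (SD, n = 3) in TRAP WT, 109 ± 15.2 (SD, n = 2) without replicate 3. In KO it was 134 ± 8.98 (SD, n = 3) in input and 116 ± 5.76 (SD, n = 4) in TRAP. These shares use the longest annotated transcript of each gene and are not affected by how libraries are scaled to each other. The summed levels do depend on that scaling. With library totals in place of TMM factors, the median log2 fold change over all genes shifted by -0.82 in WT and -0.73 in KO. The sums are given with TMM factors only. The lead of Atp2b3 in input depends on that length correction. Without it Atp2b2 led in input too, with 48.1% in WT and 47.2% in KO, against 30.4% and 29.9% for Atp2b3. How reads shared between paralogous pumps were assigned is not given in the sources used here.

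**Figure D3:**
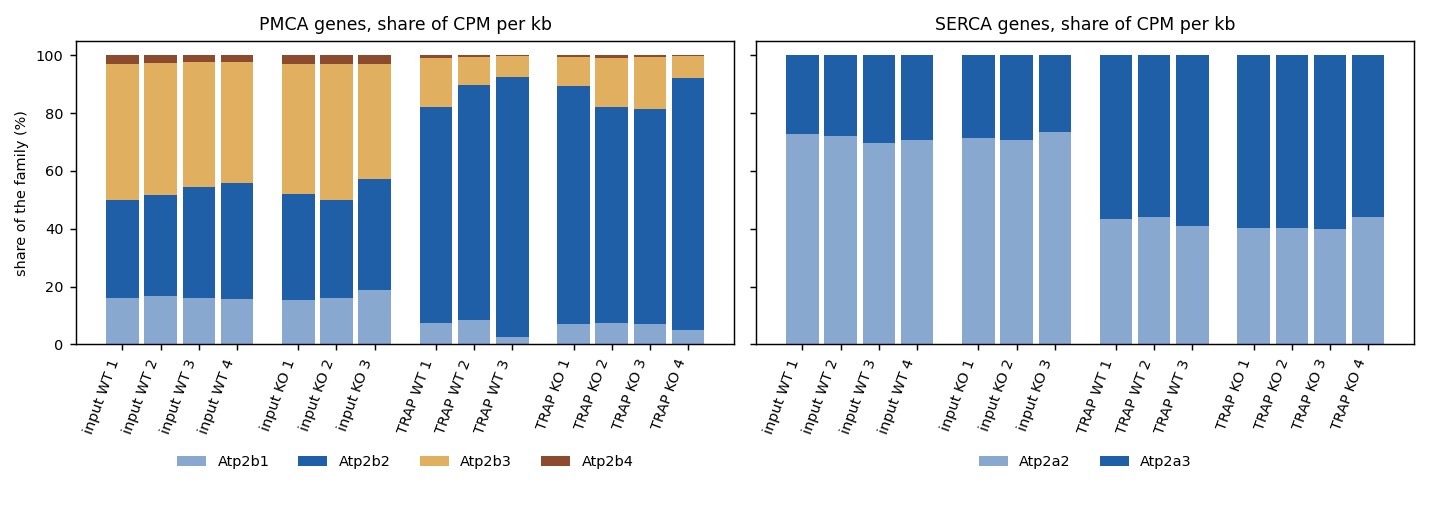
Share of each PMCA gene (left) and SERCA gene (right) in the summed CPM per kb of its family, 1 bar for each library. Atp2b2 rises from 33.6% to 40.3% in input to 74.4% to 89.8% in TRAP, and Atp2a3 from 26.5% to 30.5% to 55.8% to 59.9%.

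Per kb, the order of levels in input WT was Pvalb (801 ± 56.8 CPM per kb, SD, n = 4), Hpcal1 (259.6 ± 7.29), Calb1 (212 ± 13.5), Atp2a2 (118 ± 25.8), Atp2b3 (61.2 ± 2.35), Atp2b2 (51.0 ± 8.32), Atp2a3 (47.6 ± 12.6), Slc8a2 (39.9 ± 1.20), Atp2b1 (22.4 ± 1.54) and Atp2b4 (3.52 ± 0.241). Neighbours from Atp2b3 down to Slc8a2 overlapped each other in range. The first 3 places were the same in TRAP WT, with Pvalb at 13803 ± 8662 CPM per kb (SD, n = 3), Hpcal1 at 2108 ± 119.9 and Calb1 at 1469 ± 85.7. Below them Atp2a3 (456 ± 249) came before Atp2a2 (334 ± 159), with overlapping ranges, and then Atp2b2 (109 ± 41.9). Atp2b3 (13.8 ± 2.64), Slc8a2 (10.6 ± 2.57) and Atp2b1 (7.37 ± 2.90) followed, each overlapping the next, and Atp2b4 was last at 0.608 ± 0.285. Without TRAP WT replicate 3, Pvalb was at 18170 ± 5972 CPM per kb (SD, n = 2). Atp2a3 (287 to 338) and Atp2a2 (219 to 268) then did not overlap. Within each fraction the KO order was that of WT. Hpcal1 and Calb1 overlapped in both KO groups, and in TRAP KO, Atp2a3 (363 ± 21.9, SD, n = 4) and Atp2a2 (255 ± 23.9) did not. The order of the first 3 genes depends on the length correction. By mean CPM without it, Calb1 was above Hpcal1 in every group (893 against 396 in input WT, 6204 against 3217 in TRAP WT). In input Calb1 was then also above Pvalb (893 against 783 in WT, 976 against 795 in KO).

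The scaling sets where 0 lies in this comparison. With library totals in place of TMM factors, the log2 fold changes shifted as a whole, their median over the table by -0.82 in WT and by -0.73 in KO, and the split of calls over all genes became 3135 higher and 9801 lower in WT, against 5937 and 6181. Of the 10 genes, 5 were then called higher and 4 lower in WT, and 4 higher and 4 lower in KO. The calls lost were Atp2b2 in both genotypes (log2 0.27, adjusted p = 0.156 in WT and 0.15, adjusted p = 0.437 in KO, edgeR) and Atp2a2 in KO (0.44, adjusted p = 0.0630, edgeR). These were the highest adjusted p of each over all its alternatives. No direction changed.

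TRAP WT replicate 3 differed from the other 6 TRAP libraries in opposite directions for different genes. Relative to the mean of those 6 on the log2(CPM + 1) scale it had 0.340 times as much Pvalb, 0.469 times as much Atp2b4 and 0.586 times as much Atp2b1. It had 2.15 times as much Atp2a3, 2.06 times as much Atp2a2 and 1.73 times as much Atp2b2. Calb1 (0.864), Hpcal1 (1.15), Atp2b3 (0.892) and Slc8a2 (0.762) were closer to the others. Input WT replicate 4 went in the same direction for 4 of these genes, with the lowest Pvalb and the highest Atp2b2, Atp2a2 and Atp2a3 of the input WT libraries. It also had the highest Calb1, Atp2b1 and Atp2b3 of those libraries, the opposite direction to TRAP WT replicate 3. Transcript length was looked at beside this: over all genes, the median log2 deviation of TRAP WT replicate 3 was -0.11 in the 25% of genes with the shortest transcripts and 0.13 in the 25% with the longest. Pvalb, at 977 bases, is the shortest of the 10 and deviated by -1.56. Atp2b4, the longest at 11725 bases, deviated by -1.09. Of the TRAP WT libraries, replicate 3 also had the highest Purkinje score (10.8). Its granule cell (6.49), interneuron (2.92), astroglial (5.52) and oligodendrocyte (5.85) scores were the lowest of those libraries. The part of transcript length or of these cell types in the deviations was not tested.

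**Figure D4:**
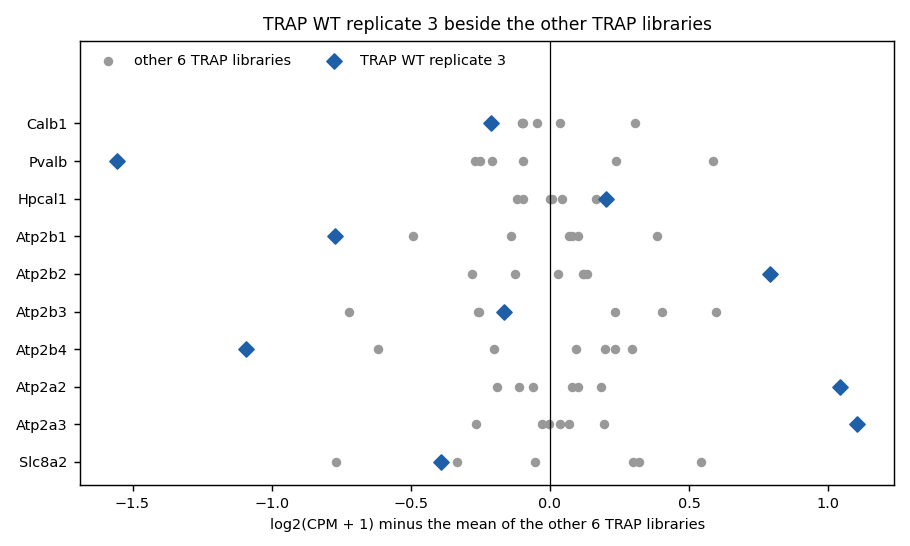
Difference of each TRAP library from the mean of the 6 TRAP libraries other than WT replicate 3, on the log2(CPM + 1) scale. TRAP WT replicate 3 (diamonds) lies outside the range of the other 6 libraries (grey points) for 8 of the 10 genes, and inside it for Atp2b3 and Slc8a2.

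Genotype was compared within each fraction, to ask whether loss of Astn2 altered gene expression in Purkinje cells or in whole cerebellum. None of the 10 genes was called in TRAP, by edgeR or by the DESeq2 Wald test. Over all genes 0.00707% of 14145 were called there, which is 1 gene, and 1.5% had an unadjusted p under 0.05; among the 10 genes that number was 0. The log2 fold changes of KO over WT ran from -0.27 (Atp2a2) to 0.31 (Atp2b4), with a median of 0.01. The 95% confidence intervals were wide for the pumps and Pvalb: Pvalb -0.02 (-0.99 to 0.95), Atp2b4 0.31 (-0.44 to 1.07), Slc8a2 0.04 (-0.69 to 0.78), Atp2b3 0.13 (-0.58 to 0.85), Atp2a3 -0.20 (-0.87 to 0.47), Atp2a2 -0.27 (-0.84 to 0.31), Atp2b1 0.04 (-0.61 to 0.70) and Atp2b2 -0.14 (-0.67 to 0.40). They were narrower for Calb1, 0.18 (-0.19 to 0.56), and Hpcal1, -0.17 (-0.50 to 0.15). The intervals of the other 8 genes included a 1.5-fold change in at least 1 direction.

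Without TRAP WT replicate 3 the estimates of Atp2b2 (0.13), Atp2a2 (0.08), Atp2a3 (0.23), Atp2b1 (-0.18) and Slc8a2 (-0.09) changed sign, that of Pvalb was -0.38, those of Atp2b4 (0.044), Calb1 (0.12), Hpcal1 (-0.15) and Atp2b3 (0.11) kept theirs, and none of the 10 genes was called. Without TRAP WT replicate 2, which had the highest Pvalb, the Pvalb estimate was 0.68. Hpcal1 was the 1 gene of the 10 whose TRAP groups did not overlap: the 4 KO libraries lay between 2687 and 2936 CPM and the 3 WT libraries between 3011 and 3361. In edgeR its p was 0.259 unadjusted and 1.00 adjusted, and 4.49% of all genes tested in TRAP had groups that did not overlap. Within females Hpcal1 was at 2729 and 2918 CPM in KO and 3011 in WT, and within males at 2687 and 2936 in KO and 3279 and 3361 in WT. Choroid plexus markers also separated the TRAP genotypes, with a summed level of 6.90 to 107 CPM in WT and 4.78 to 6.57 in KO; their part in the level of Hpcal1 was not tested.

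In input, none of the 10 genes was called in edgeR's test, where 0.0188% of 15997 genes were called, which is 3 genes. An unadjusted p under 0.05 was reached by 2 of the 10, Slc8a2 and Calb1, beside 13.7% of all genes tested. Slc8a2 was lower in KO, at 175 ± 9.63 CPM (SD, n = 3) against 209.8 ± 6.30 (SD, n = 4). All KO libraries (167 to 186) were below all WT libraries (201 to 214). Groups that did not overlap were seen for 10.3% of all genes tested in input and for 1 of the 10. The log2 fold change of Slc8a2 was -0.29 (95% interval -0.44 to -0.14), and edgeR's p was 0.00202 unadjusted and 0.186 adjusted. Within females the KO libraries were at 167 and 186 CPM and the WT library at 214, and within males the KO library was at 173 and the WT libraries at 201 to 214. The DESeq2 Wald test called Slc8a2 (-0.28, adjusted p = 0.0107), 1 of 292 genes that it called in input; over all its alternatives the adjusted p of Slc8a2 ran from 0.0107 to 1.00. In TRAP the estimate for Slc8a2 was 0.04, and the difference between the fractions, 0.36 (95% interval -0.41 to 1.12), was not called.

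Calb1 in input had a log2 fold change of 0.21 (95% interval 0.07 to 0.35), and edgeR's p was 0.00922 unadjusted and 0.239 adjusted. Its KO libraries (923, 878 and 1126 CPM) overlapped the WT libraries (816 to 947). Within females both KO libraries were above the WT library at 816, and within males the KO library at 1126 was above the WT libraries at 889 to 947. The remaining 8 genes had estimates between -0.13 (Atp2b3) and 0.14 (Atp2b4), and every interval was narrower than the same gene's interval in TRAP. Beside these values, the summed endothelial marker level was 15.7 to 23.3 CPM in input KO and 24.0 to 34.1 in input WT, without overlap. The Purkinje panel score was 7.65, 7.67 and 7.78 in input KO and 7.55, 7.59, 7.66 and 7.78 in input WT, and the granule cell score 8.82 to 8.88 in KO and 8.87 to 8.91 in WT. The part of any of these panels in the levels of Slc8a2 and Calb1 was not tested.

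**Figure D5:**
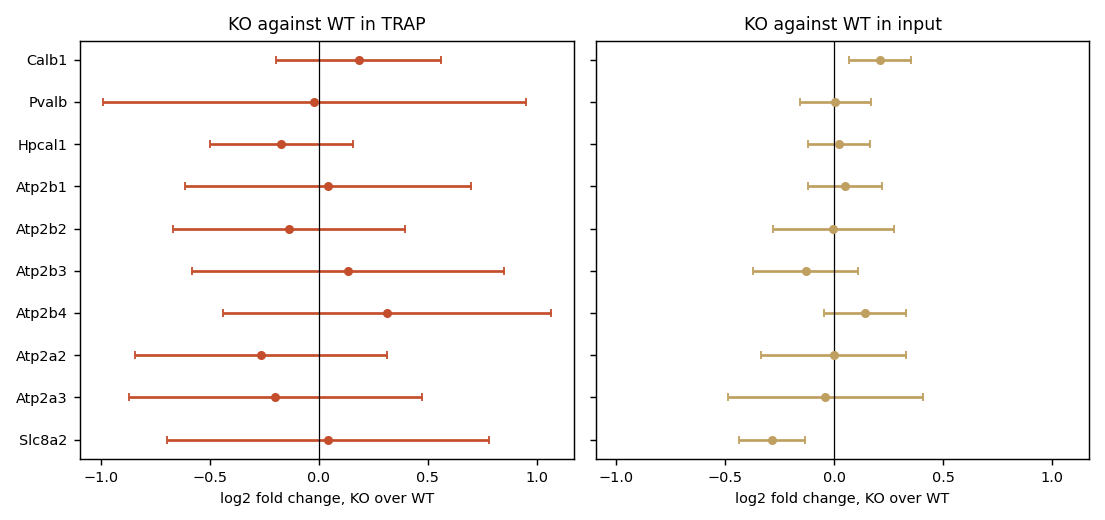
Log2 fold change of KO over WT for each gene in TRAP (left) and input (right), with 95% confidence intervals from edgeR. In TRAP all 10 intervals include 0, and in input those of Calb1 (0.07 to 0.35) and Slc8a2 (-0.44 to -0.14) do not, though neither gene was called after adjustment.

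Whether TRAP over input differed between genotypes was tested as an interaction. None of the 10 genes was called by edgeR or DESeq2, and edgeR called 0% of the 16042 genes; 2.68% of all genes and 0 of the 10 had an unadjusted p under 0.05. The interaction estimates ran from -0.34 (Atp2a2) to 0.36 (Slc8a2), and the narrowest interval was that of Hpcal1 (-0.19, 95% interval -0.47 to 0.09). Without TRAP WT replicate 3 the estimate was 0.082 for Atp2a2 and 0.20 for Slc8a2, and the range ran from -0.42 (Pvalb) to 0.30 (Atp2a3). The isoform shares in TRAP overlapped between genotypes: Atp2b2 was at 81.9% ± 7.55 (SD, n = 3) in WT and 79.6% ± 6.15 (SD, n = 4) in KO, and Atp2a3 at 57.2% ± 1.65 and 58.8% ± 1.88. Without TRAP WT replicate 3 the WT shares were 77.9% ± 4.34 (SD, n = 2) for Atp2b2 and 56.3% ± 0.627 for Atp2a3.

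A wider list of 67 other genes of calcium handling was read in the same fits; 66 were in the table and 61 were tested. In WT 24 were higher in TRAP, 30 lower and 7 not called, and in KO 22 were higher, 28 lower and 11 not called; 22 were higher and 28 lower in both genotypes. With library totals the split was 12 higher and 39 lower in WT. Their median log2 fold change in WT was -0.60, beside -0.09 for all genes. The cytosolic EF-hand proteins, 21 tested, had 7 higher and 13 lower in each genotype. Highest among them in WT were Necab2 (log2 3.83 in WT and 3.73 in KO), the potassium channel partner Kcnip1 (3.71 and 3.41) and hippocalcin, Hpca (3.14 and 2.69). In KO, Ocm (3.44) was above Kcnip1, and Cabp7 (2.92) was above Hpca; these 2 are named outside the naming rule, for the order in KO. Hpca is a close relative of Hpcal1, and so is Hpcal4, which went the other way (-2.27 and -2.41): Hpcal4 was at 45.5 ± 4.97 CPM (SD, n = 4) in input WT and 9.69 ± 2.84 (SD, n = 3) in TRAP WT. The neuronal calcium sensors of this family were therefore not uniform in TRAP.

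Of 9 other pumps and exchangers tested, 7 were lower in TRAP in each genotype. The lowest by fitted value were the potassium-dependent exchangers Slc24a4 and Slc24a5. Slc24a5 went from 6.46 ± 0.688 CPM (SD, n = 4) in input WT to 1.28 ± 0.717 (SD, n = 3) in TRAP WT, a log2 fold change of -2.42. Slc24a4 had 3 counts summed over the TRAP WT libraries and 159 over the input WT libraries, and Chp2, an EF-hand partner of sodium/proton exchangers, had 0 and 69, so their fitted changes are not given as sizes. The sodium/calcium exchangers Slc8a1 (log2 -1.79) and Slc8a3 (-1.67) were lower in WT, like Slc8a2. In the endoplasmic reticulum store group, 17 tested, 7 were higher and 6 lower in WT, with the store-operated channel Orai3 at 3.00 and the ryanodine receptor Ryr2 at -2.26. In the mitochondrial group, 9 tested, 5 were higher and 2 lower in WT, led by Smdt1, a subunit of the uniporter complex, at 2.97. Nptn, which encodes neuroplastin, an auxiliary subunit of PMCA pumps, was called higher in TRAP (log2 fold change of 2.01 in WT, 1.93 in KO); Slc8a1, Slc8a3 and Nptn are named outside the naming rule, for their relation to the pumps and the exchanger.

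In the genotype comparisons edgeR called none of the wider list, of 57 genes tested in TRAP and 61 in input and for the interaction. Unadjusted p-values under 0.05 were reached by 2 in TRAP (3.51%, beside 1.5% of all genes), 7 in input (11.5%, beside 13.7%) and 0 for the interaction (beside 2.68%). The DESeq2 Wald test called none in TRAP or for the interaction and 1 in input, Necab1, another EF-hand protein; edgeR gave it a log2 fold change of 0.38 (adjusted p = 0.222).

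For each of the 10 genes, the 2 genes outside the set with the most similar pattern were found by Pearson r of log2(CPM + 1) over the 14 libraries. These correlations mainly follow the difference between the fractions and are given as a description. They were Bcl11a (0.999) and Plekhd1 (0.999) for Calb1, Oaz2 (0.999) and Mrps12 (0.999) for Pvalb, and Itgb1bp1 (0.999) and Inpp5a (0.999) for Hpcal1. For Atp2a3, Gabbr1 (0.998), a subunit of the GABA-B receptor, was among them. For Atp2a2 they were Adamts3 (0.992) and Tenm3 (0.988), and for Atp2b2 they were Gria3 (0.988), an AMPA receptor subunit, and Sort1 (0.985). Among the genes lower in TRAP they were Ptprd (0.991) and Ap1s2 (0.990) for Atp2b1, Slc24a3 (0.996) and Plxnb2 (0.995) for Atp2b3, Ptgr2 (0.996) and Prkcb (0.996) for Atp2b4, and Igsf21 (0.996) and Slc24a3 (0.995) for Slc8a2. Slc24a3, a potassium-dependent sodium/calcium exchanger, was thus near both Atp2b3 and Slc8a2.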

How the data were processed

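RNA sequencing of 14 libraries was analysed from gene counts. The deposited values are raw counts, whole numbers per Entrez gene number with no normalization; the submitters' processing notes name Salmon 0.8.2 and mm10 without a role, and the counting step, annotation and strand setting are not given in the sources used here. Symbols and positions came from the RefSeq gene table of GRCm38.p6 (24045 of 24100 genes matched), and transcript lengths from the longest GENCODE M21 transcript of each gene. Groups, sex and replicate numbers followed the labels. The main test was edgeR 4.0.16 (R 4.3.3): TMM factors, filterByExpr, two-sided quasi-likelihood tests, Benjamini-Hochberg adjustment over all genes tested at 0.05. For TRAP against input and the interaction, 1 fit held the 4 group means plus sex over 14 libraries; genotype was fitted for each fraction alone (7 libraries), again with sex. Standard errors are the absolute log2 fold change over the square root of F. The code was tested on simulated data. The lowest level read as present, 3 counts, was 0.0553 to 0.160 CPM depending on depth; it covers counting error only, and whether PCR copies were marked by molecular identifiers is not given in the sources used here.

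The 10 genes, the wider list, the marker panels and the tests were chosen with earlier results of these data known. Named are all 10 genes in every comparison, of the wider list the 5 (or fewer) most changed genes per direction that were called in both genotypes, any gene of it called for genotype, and the 2 genes most alike to each of the 10, of which 1 is not reported here. Panels were Purkinje, granule cell, interneuron, astroglia, oligodendrocyte, microglia, endothelium and choroid plexus. In TRAP against input in WT, 9 of 10 astroglial, 10 of 10 oligodendrocyte, 7 of 8 microglial, 8 of 8 endothelial and 1 of 6 choroid plexus markers were lower. Alternatives were a DESeq2 1.42.0 Wald test, its size factors, library totals, no low-count filter, a fit without sex, a replicate block, genotype fitted over 14 libraries, leaving out each library, and shares without length correction.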

Additional observations from a re-analysis of the deposited data

Results flagged for a closer look

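In the groups of 4 libraries, 30 sets of values were checked for a library whose gap to its neighbour took a share of the group's range above Dixon's 95% limit, and 3 had one; chance gives about 1 in 20. Pvalb in TRAP KO replicate 1, at 17150.3 CPM, was above the other 3 TRAP KO libraries (12087 to 12609), with a gap of 0.879 of the range on the log2(CPM + 1) scale. Atp2b1 in TRAP KO replicate 4, at 39.8 CPM, was below the other 3 (59.1 to 60.5), with a gap of 0.946 of the range. The same library had the lowest share of Atp2a3 in the SERCA sum, 56.0% against 59.6% to 59.9%, with a gap of 0.920 of the range.

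For 3 of 20 combinations of gene and fraction, all KO libraries lay above all WT libraries in 1 sex and below them in the other. With 1 library in a cell, this difference was not tested. The share of all genes with such an order was not counted, and so few libraries can give it by chance. The 3 are therefore listed as a description only. All 3 were in input. Pvalb in females was lower in KO (752 and 803 CPM against 826) and in males higher (831 against 701 to 806), and the log2 difference of KO over WT, males minus females, was 0.202. Hpcal1 in females was lower in KO (364 and 368 CPM against 386) and in males higher (439 against 387 to 406), a difference of 0.214. Atp2a3 in females was higher in KO (196 and 199 CPM against 156) and in males the KO library at 188.5 was just below the WT libraries at 189.5 to 288, a difference of -0.687.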

How the results depend on the processing

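All 10 genes kept their TRAP against input direction in every alternative, and their calls except the 3 lost with library totals (Atp2b2 0.27 in WT and 0.15 in KO, Atp2a2 0.44 in KO). No genotype call was made in edgeR under any alternative. DESeq2's Wald test called 1 of the 10 genes in input (Slc8a2) and 1 of the wider list. Without length correction the Atp2b2 share was 48.1% in input WT, 47.2% in input KO and 85.8% in TRAP KO, and the Atp2a3 share 24.6%, 24.2%, 52.0% in TRAP WT and 53.7% in TRAP KO.

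Genotype estimates of genes that were not called changed sign in the following settings; the causes were not tested. In TRAP, Pvalb was 0.032 with library totals, 0.011 without the sex covariate and 0.29 with the replicate block. In input, Pvalb was -0.00890 with library totals, -0.035 with the block and -0.012 in the 14-library fit, Hpcal1 -0.039 without sex and -0.024 with the block, Atp2b1 -0.016 without sex, and Atp2a3 0.011 in the 14-library fit. Also in input, Atp2b2 was 0.00123 with DESeq2 size factors, 0.00168 without the filter, 0.00118 in DESeq2, 0.024 with the block and 0.045 in the 14-library fit; Atp2a2 was 0.00333, 0.00377, 0.00331, 0.017 and 0.050. The interaction of Calb1 was 0.081 with library totals and 0.036 without sex, and that of Pvalb 0.083 with library totals and 0.30 with the block. Leaving out 1 library gave these ranges where a sign changed. In TRAP they were Pvalb -0.38 to 0.68, Atp2b1 -0.18 to 0.42, Atp2b2 -0.39 to 0.13, Atp2b3 -0.31 to 0.35, Atp2b4 -0.010 to 0.54, Atp2a2 -0.49 to 0.076, Atp2a3 -0.49 to 0.23 and Slc8a2 -0.41 to 0.27. In input they were Pvalb -0.067 to 0.085, Hpcal1 -0.056 to 0.11, Atp2b2 -0.17 to 0.20, Atp2b3 -0.32 to 0.10, Atp2a2 -0.19 to 0.22 and Atp2a3 -0.38 to 0.36. For the interaction they were Calb1 -0.076 to 0.083, Pvalb -0.42 to 0.74, Atp2b1 -0.21 to 0.49, Atp2b2 -0.37 to 0.13, Atp2b4 -0.062 to 0.48, Atp2a2 -0.49 to 0.082 and Atp2a3 -0.42 to 0.30. Slc8a2 in input stayed between -0.30 and -0.26.

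Same-numbered input and TRAP libraries had correlations of their deviations of 0.0981 to 0.292 in WT and -0.125 to 0.225 in KO. Libraries with different numbers had -0.230 to 0.181 in WT and -0.230 to 0.346 in KO. Input WT replicates 1, 2 and 3 and input KO replicates 1 and 2 were each most like the same-numbered TRAP library. Input KO replicate 3 was most like TRAP KO replicate 4 (0.346). The numbers were not taken as pairing in the main fit, which treats input and TRAP libraries as independent. Input was a portion of the homogenate used for capture, but these values do not settle which input library belongs to which TRAP library. With the replicate block all 10 genes were called in both genotypes and none for genotype, and 53 of the wider list were called in WT, against 54 without the block, and 50 in KO, against 50 without it.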
